A study of Mus musculus with 28 samples.

Results

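The genes described here are Bdnf, Ntf3, Ntrk2, Ntrk3, Ngfr and Sort1, which code for 2 neurotrophins, their signalling receptors and a sorting receptor. They were found by their symbols in the combined name column of the authors' table, with the row of highest mean kept for each symbol, and are 6 of the 22256 symbols on the array. Each had 1 row, so the isoforms of a gene were not told apart. They were measured in the hippocampus of aged NSG mice, an immunodeficient strain without mature lymphocytes, whose mean age was 14 months. All mice had received 6 intravenous injections. Of the 4 groups, those given plasma received human cord plasma, human young plasma or human old plasma, and the last received phosphate-buffered saline (PBS), with 7 arrays in each and 28 in all. The comparisons ask whether plasma altered this signalling system in the hippocampus, and whether the plasmas of different donor age differed.

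Neurotrophins are secreted proteins that keep neurons alive and adjust synapses. Brain-derived neurotrophic factor (BDNF, from Bdnf) acts through the receptor tyrosine kinase TrkB (from Ntrk2), and neurotrophin 3 (from Ntf3) mainly through TrkC (from Ntrk3). The p75 neurotrophin receptor (from Ngfr) binds all mature neurotrophins, and together with sortilin (from Sort1) it binds their uncleaved proforms. In the hippocampus BDNF is needed for lasting synaptic strengthening, and transcription of its gene follows neuronal activity.

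Bdnf is transcribed from several start sites, and neuronal activity acts through some of them. RefSeq promoter windows on GRCm38.p6 were given for 4 of the 6 genes, namely Bdnf, Ntf3, Ntrk2 and Ngfr, and each window below holds the 250 bases before an annotated start. The motifs searched on both strands were the cAMP response element (CRE) TGACGTCA, its half-site TGACG, the Bdnf variant TCACGTCA, whose complementary strand contains the half-site, and the E-box CACGTG. Over 32851 windows of the same length, 1.55% held TGACGTCA, 17.8% held TGACG, 0.35% held TCACGTCA and 6.02% held CACGTG. Of 7 Bdnf windows, 1 held TCACGTCA, and it is shown with the window of start 1 for contrast and with that of Ntrk2. The array values of Ntrk2 ran opposite to those of Bdnf, although that call did not hold with each array centred on its median. Capitals mark TCACGTCA. The windows lie on the plus strand at chr2:109692186-109692435 for Bdnf start 3, chr2:109674450-109674699 for Bdnf start 1 and chr13:58806319-58806568 for Ntrk2.
Bdnf start 3: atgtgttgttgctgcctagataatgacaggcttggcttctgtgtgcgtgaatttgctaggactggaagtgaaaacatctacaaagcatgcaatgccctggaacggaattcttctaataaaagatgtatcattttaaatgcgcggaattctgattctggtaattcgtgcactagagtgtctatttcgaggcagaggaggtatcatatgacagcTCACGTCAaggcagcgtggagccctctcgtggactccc
Bdnf start 1: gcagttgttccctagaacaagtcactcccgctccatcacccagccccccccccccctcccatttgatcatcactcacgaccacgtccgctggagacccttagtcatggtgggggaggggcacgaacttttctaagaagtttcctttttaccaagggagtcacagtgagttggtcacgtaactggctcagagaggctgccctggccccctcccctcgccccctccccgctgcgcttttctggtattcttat
Ntrk2: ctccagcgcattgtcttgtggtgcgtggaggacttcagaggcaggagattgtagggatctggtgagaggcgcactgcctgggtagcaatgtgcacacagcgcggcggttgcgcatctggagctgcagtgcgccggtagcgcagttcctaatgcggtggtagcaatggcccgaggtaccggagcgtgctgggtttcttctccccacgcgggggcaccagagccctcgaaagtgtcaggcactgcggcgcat
In start 3 the half-site begins at position -35 relative to the start. The other 6 Bdnf windows, the Ntrk2 window and the Ngfr window held none of these motifs, and of the 2 Ntf3 windows 1 held a single CACGTG. The array has 1 row for Bdnf, so use of one start against another was not measured.

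The values are log2 intensities. Array medians ran from 4.96 to 5.09, correlations between arrays from 0.976 to 0.995, and no arrays were identical. Whether arrays came from different mice is not in the labels, and p-values here measure only the spread between the samples, which may be technical. Defining markers of the hippocampus had log2 values well above the filter on low values: Prox1, of dentate granule neurons, averaged 8.77, 8.55 and 8.67 with cord, young and old plasma and 8.73 with PBS, and Wfs1, of CA1 pyramidal neurons, 9.97, 9.96, 9.86 and 9.85 in the same order. The filter lay at 4.68, the 30th percentile of row means, and it is not a limit of detection. Of the 9 dentate granule markers 8 passed it, and Tdo2, at 4.63, did not. All 9 CA1 and CA3 markers passed. Of 6 markers of cholinergic neurons, which are known to carry p75 in the basal forebrain, 5 including Chat lay under that filter. Some arrays stood apart from their group in 1 or more marker lists. PBS replicate 4 had a mean of 7.76 over 9 interferon response genes, where the group's median was 5.76. PBS replicate 6 had a mean of 8.24 over 10 thalamus markers, where the median was 6.97. Young plasma replicate 7 had the lowest microglia mean, 7.24 against a group median of 7.67. It also had its group's highest CA1 and CA3 mean, 8.30 against a median of 8.07. Its means were the group's lowest for endothelial and pericyte markers, 7.30 against 7.61, and for immediate early genes, 6.85 against 7.35. The mean of 12 choroid plexus markers split the arrays more widely, with 13 of the 28 between 7.13 and 8.31 and the other 15 between 5.44 and 6.10. The higher set held 3 arrays each of cord, young and old plasma and 4 of PBS, and all 4 arrays with replicate number 4.

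None of the 6 genes passed the test for a change with any plasma. All 6 passed the filter on low values, and none of their 42 differences over 7 comparisons had an adjusted p under 0.05 (limma, Benjamini-Hochberg over 15781 genes). The share of all genes called at that threshold was 0% for cord plasma, 0% for young plasma, 0% for old plasma and 0.019% for the mean of the 3 plasma groups (the plasma mean), each against PBS. It was 0% for cord against old plasma, 0.00634% for young against old plasma, 0% for cord against young plasma and 0.00634% for the F-test over the 4 groups. At an unadjusted p under 0.05, 1 of the 42 differences passed, that of Ntrk2 between cord and old plasma, where 4.2% of all genes passed. The 95% intervals of all differences from PBS lay between -0.24 and 0.29 on the log2 scale. The arrays of every group overlapped with those of every other group for each of the 6 genes. Groups without overlap occurred for 0.196% of all genes with cord plasma, 0.215% with young plasma and 0.323% with old plasma against PBS. Between plasmas the share was 0.076% for cord against old, 0.0951% for young against old and 0.0824% for cord against young.

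**Figure D1:**
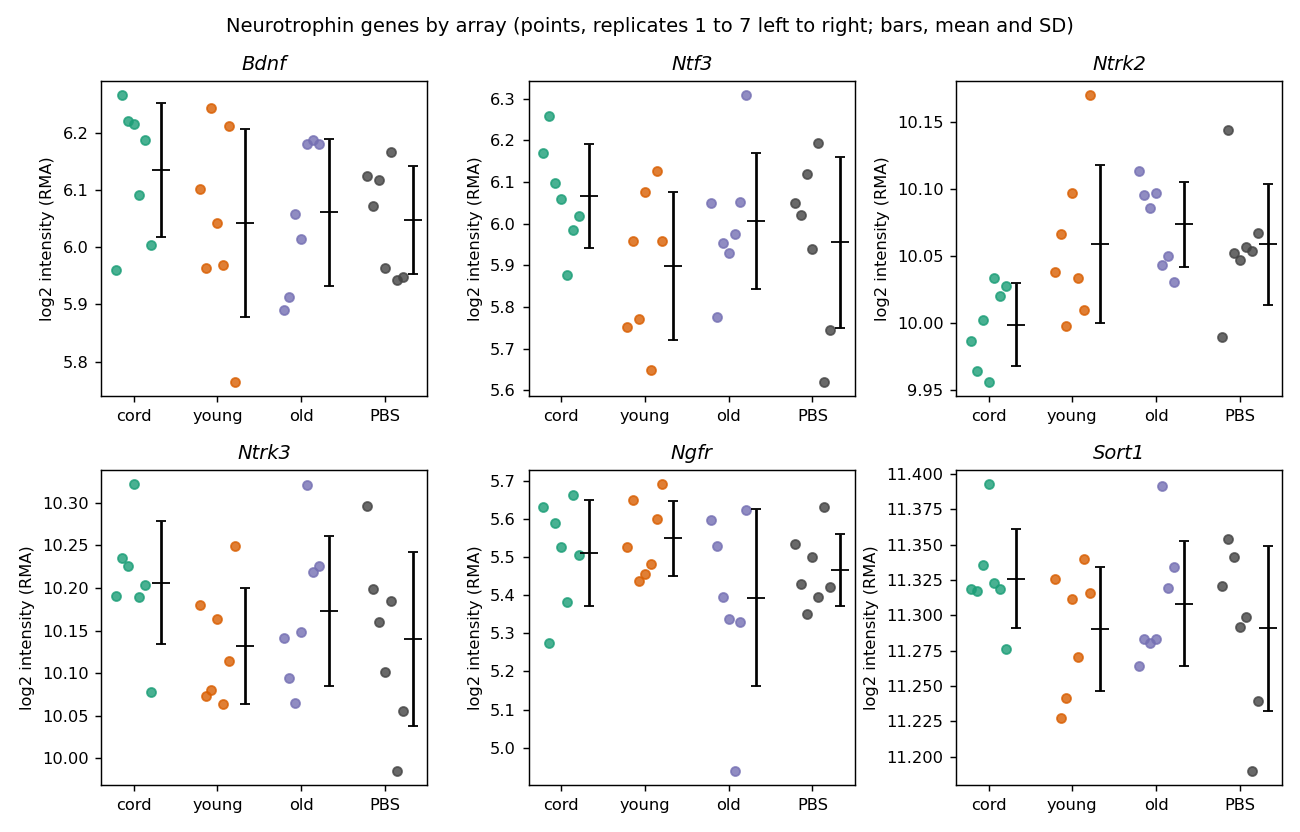
Log2 intensity of Bdnf, Ntf3, Ntrk2, Ntrk3, Ngfr and Sort1 on each of 28 arrays, with cord, young and old plasma left of PBS; points are arrays, and the bars give the group mean and SD (n = 7). The vertical axes differ between panels and do not start at 0. All groups overlap in each panel, the cord plasma arrays of Ntrk2 lie at or below 10.03, and 1 old plasma array of Ngfr lies at 4.94.

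Bdnf codes for BDNF, the neurotrophin most studied in the adult hippocampus. With cord plasma its lowest, median and highest arrays were 5.96, 6.19 and 6.27. With young plasma they were 5.76, 6.04 and 6.24, and with old plasma 5.89, 6.06 and 6.19, against 5.94, 6.07 and 6.17 with PBS. The highest 4 cord plasma arrays exceeded all PBS arrays, and the other 3 lay within the PBS range. The means were 6.14 ± 0.12 with cord plasma, 6.04 ± 0.16 with young plasma, 6.06 ± 0.13 with old plasma and 6.05 ± 0.09 with PBS (SD, n = 7 each). Cord plasma minus PBS was 0.087 on the log2 scale (SE 0.068, limma adjusted p = 0.759), a fold of 1.062 with a 95% interval of 0.965 to 1.169. The differences of young and old plasma from PBS were -0.0055 and 0.013, each smaller than its SE of 0.068. Without young plasma replicate 7, the lowest Bdnf array at 5.76, young plasma minus PBS was 0.041 (adjusted p = 0.852).

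Ntf3 codes for neurotrophin 3, which in the hippocampus is known from dentate granule neurons. Its lowest, median and highest arrays were 5.88, 6.06 and 6.26 with cord plasma and 5.65, 5.96 and 6.13 with young plasma. They were 5.78, 5.98 and 6.31 with old plasma and 5.62, 6.02 and 6.19 with PBS. The cord plasma arrays formed the narrowest group and the PBS arrays the widest, with SDs of 0.12 and 0.21. Cord plasma minus PBS was 0.11 (SE 0.087, adjusted p = 0.762), with a fold interval of 0.954 to 1.222. Without PBS replicate 6, the lowest array, it was 0.055 (adjusted p = 0.931). Young plasma minus PBS was -0.057 and old plasma minus PBS 0.051, both within 1 SE. Leaving out 1 array moved the first of these to between -0.1126, without PBS replicate 6, and -0.0151, without young plasma replicate 5.

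Ntrk2 codes for TrkB, present as a full-length kinase receptor in neurons and as truncated forms in neurons and astrocytes. With cord plasma its lowest, median and highest arrays were 9.956, 10.002 and 10.033. With young plasma they were 9.998, 10.038 and 10.170, and with old plasma 10.031, 10.086 and 10.114, against 9.989, 10.054 and 10.144 with PBS. All 7 cord plasma arrays lay below the PBS median and 3 of them below every PBS array, and 1 PBS array lay among them. Ntrk2 averaged 9.999 ± 0.031 with cord plasma, 10.059 ± 0.059 with young plasma, 10.074 ± 0.032 with old plasma and 10.059 ± 0.046 with PBS (SD, n = 7 each). Cord plasma minus PBS was -0.060 (SE 0.032, limma adjusted p = 0.601), a fold of 0.959 with a 95% interval of 0.917 to 1.003. It did not pass the test, and neither did the F-test over the 4 groups (adjusted p = 0.581), which 0 of the 6 genes passed unadjusted and 9.83% of all genes did.

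The spread of Ntrk2 within groups was small, with a residual SD of 0.044 that was lower than that of all but 0.3% of genes tested. The moderation in limma, which draws a gene's variance toward that of genes in general, set its SE to 0.032, against 0.023 without moderation. In the authors' deposited table the unadjusted p of Ntrk2 was 0.0134 for cord plasma against PBS and 0.0173 for the analysis over the 4 groups; unadjusted, limma gave 0.0666 and 0.106. For the other 5 genes the authors' deposited p-values lay between 0.135 and 0.986.

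Ntrk3 codes for TrkC, the receptor of neurotrophin 3. Its lowest, median and highest arrays were 10.08, 10.20 and 10.32 with cord plasma and 10.06, 10.11 and 10.25 with young plasma. They were 10.06, 10.15 and 10.32 with old plasma and 9.99, 10.16 and 10.30 with PBS. The 4 groups overlapped widely, the PBS arrays spread most (a range of 0.31) and the young plasma arrays least (0.19), and PBS replicate 6 was the lowest array of all. Differences from PBS were 0.066 with cord plasma, -0.0084 with young plasma and 0.033 with old plasma, each with an SE of 0.047. The smallest of their adjusted p-values was 0.721, and without PBS replicate 6 the cord plasma difference was 0.040.

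Ngfr codes for p75, a receptor without kinase activity that modifies Trk signalling and binds proneurotrophins. Its lowest, median and highest arrays were 5.27, 5.53 and 5.66 with cord plasma and 5.44, 5.53 and 5.69 with young plasma. They were 4.94, 5.40 and 5.63 with old plasma and 5.35, 5.43 and 5.63 with PBS. The 7 young plasma arrays all lay above the PBS median, while 3 old plasma arrays lay below every PBS array. Differences from PBS were 0.045, 0.084 and -0.072 with cord, young and old plasma, each with an SE of 0.079 and adjusted p-values of 0.703 or more. Old plasma replicate 5, at 4.94, set the sign of the old plasma difference, which was 0.0039 without it.

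Sort1 codes for sortilin, which carries BDNF into the regulated secretory pathway and serves as the partner of p75 for proneurotrophins. Its lowest, median and highest arrays were 11.28, 11.32 and 11.39 with cord plasma and 11.23, 11.31 and 11.34 with young plasma. They were 11.26, 11.28 and 11.39 with old plasma and 11.19, 11.30 and 11.35 with PBS. Sort1 was nearly as even between arrays as Ntrk2, with a residual SD of 0.046. Differences from PBS were 0.035, -0.0005 and 0.017 with cord, young and old plasma (SE 0.032 each), and the smallest adjusted p was 0.81. Without PBS replicate 6, the lowest array, the cord plasma difference was 0.018.

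**Figure D2:**
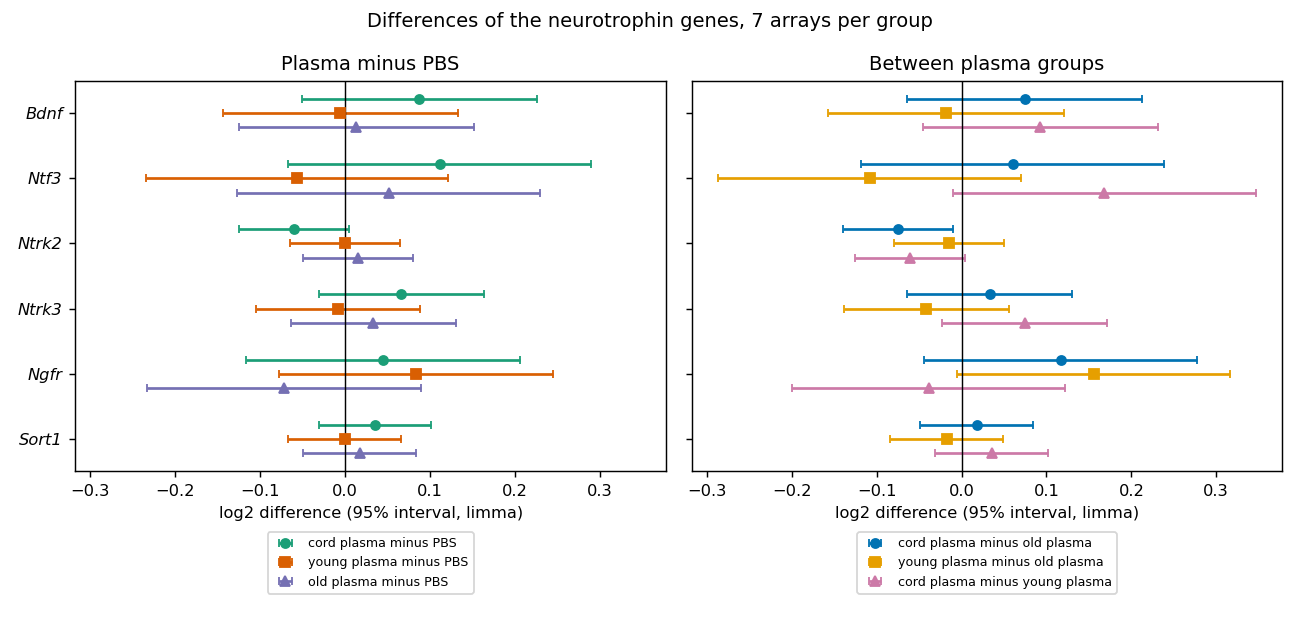
Log2 difference (horizontal axis) of the 6 neurotrophin genes (vertical axis) for each plasma minus PBS (left) and between plasma groups (right), with 95% intervals from limma. Each interval on the left includes 0, and on the right the interval of Ntrk2 for cord minus old plasma, -0.14 to -0.01, is the one that does not.

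Set side by side, the differences from PBS were above 0 for 5 of the 6 genes with cord plasma, 2 with young plasma and 5 with old plasma. Their medians were 0.055, -0.0030 and 0.016, and the medians over all 15781 genes were 0.0061, -0.0018 and 0.0050. Of all genes, 53.3% were above 0 with cord plasma, 49.2% with young plasma and 52.5% with old plasma. These comparisons share the 7 PBS arrays, so they are not independent of each other. With cord plasma Ntrk2 was the 1 gene below 0, while the other receptor genes, Ntrk3 and Ngfr, and both ligand genes were above it. For the plasma mean against PBS, the 6 differences lay between -0.015 and 0.035.

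The plasmas were also compared with each other, as plasmas from donors of different age. The number of donors or pools per group is not in the labels. Donor age therefore cannot be told apart here from other differences between the donors or pools. Ntrk2 with cord plasma minus old plasma was -0.075 (SE 0.032, unadjusted p = 0.0244 in the limma fit with n = 28 arrays, adjusted p = 0.999), a fold of 0.949 with an interval of 0.908 to 0.993. Ngfr with young minus old plasma was 0.16 (SE 0.079, adjusted p = 0.769), and 0.080 without old plasma replicate 5. Ntf3 with cord minus young plasma was 0.17 (SE 0.087, adjusted p = 0.694). The other 15 of the 18 differences between plasmas lay between -0.11 and 0.12 and had unadjusted p-values of 0.0658 or more.

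In the order of their means, no neighbouring groups differed by more than both SDs, with 1 exception. Bdnf, Ntf3, Ntrk3 and Sort1 each ran from cord plasma, the highest, through old plasma and PBS to young plasma, the lowest. Ngfr ran from young plasma through cord plasma and PBS to old plasma. Ntrk2 ran from old plasma through young plasma and PBS to cord plasma, and its step of 0.060 between cord plasma and PBS exceeded both SDs, although the arrays overlapped.

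Array-to-array variation was examined after subtracting each group's mean, so that the groups themselves play no part. Of the 15 pairs of the 6 genes, 2 correlated with an adjusted p under 0.05 (100000 permutations within groups, two-sided, Benjamini-Hochberg over 15 pairs). Ntrk3 and Sort1 varied together over the 28 arrays, with Pearson's r = 0.834 (permutation p = 1e-05, the smallest these permutations can give, adjusted 0.00015) and Spearman's rho = 0.859 (permutation p = 1e-05). The correlation was 0.828 without the 2 arrays farthest from the median of Ntrk3, and 0.942, 0.671, 0.911 and 0.83 within cord plasma, young plasma, old plasma and PBS. Leaving out any 1 array gave values from 0.797 to 0.87.

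Bdnf and Ntrk2 ran in opposite directions, with r = -0.653 (permutation p = 0.00076, adjusted 0.0057) and rho = -0.651 (permutation p = 0.00072). Young plasma replicate 7 was both the lowest array for Bdnf and the highest for Ntrk2. Without it r was -0.529, and without the 2 arrays farthest from the Bdnf median -0.49. Within groups r was -0.445, -0.881, -0.94 and -0.127 for cord plasma, young plasma, old plasma and PBS. With each array centred on its own median r was -0.353 with an adjusted permutation p of 0.191, so the call did not hold under that scaling. By rank, 4 further pairs passed, Bdnf and Ntf3 each with Ntrk3 and with Sort1, with rho between 0.462 and 0.547. Ngfr passed with none of the other 5 genes, and its lowest r was -0.432 with Bdnf (adjusted permutation p = 0.0624).

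**Figure D3:**
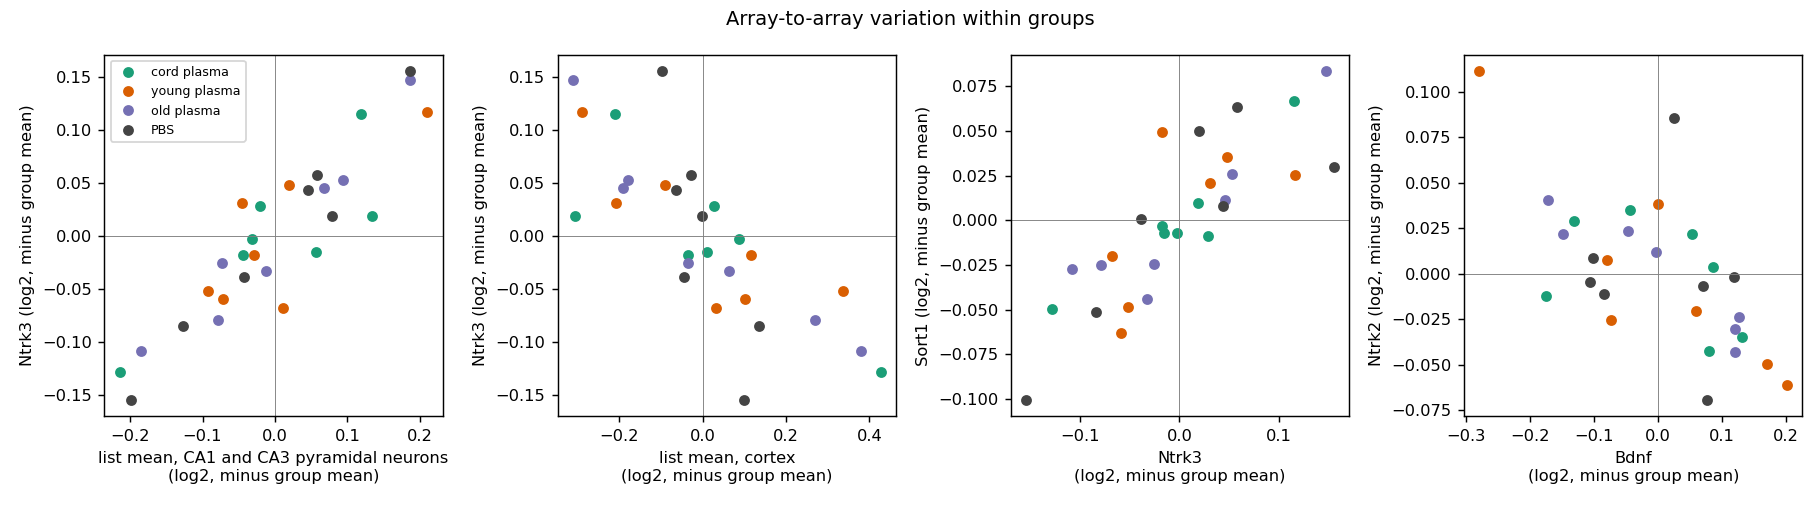
Deviations from the group mean (log2) over 28 arrays: Ntrk3 against the mean of CA1 and CA3 pyramidal markers, Ntrk3 against the mean of cortex markers, Sort1 against Ntrk3, and Ntrk2 against Bdnf, with 1 point per array coloured by group. The r values are 0.91, -0.787, 0.834 and -0.653 from left to right, and young plasma replicate 7 is the point at the upper left of the last panel.

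Cell makeup was not measured, and in bulk tissue fewer cells of a type and less RNA per cell cannot be told apart. The 6 genes were set against the mean of each of 16 marker lists on the same array, again with group means subtracted. The cholinergic list rests on 1 gene, the one of its 6 that passed the filter, with group means from 4.81 to 4.89. Of 96 pairs, 14 had an adjusted p under 0.05. Ntrk3 moved with the markers of hippocampal principal neurons: r was 0.91 with 9 CA1 and CA3 pyramidal markers (permutation p = 1e-05, adjusted 0.00048; rho 0.87, permutation p = 1e-05), 0.747 with 5 CA2 markers and 0.696 with 8 dentate granule markers. It ran against 6 cortex markers, with r = -0.787 (adjusted permutation p = 0.00064; rho -0.828, permutation p = 2e-05). Within cord plasma, young plasma, old plasma and PBS its r with the CA1 and CA3 list was 0.835, 0.794, 0.97 and 0.981, and with the cortex list -0.822, -0.825, -0.954 and -0.846. Without the 2 arrays farthest from the median of each list the 2 values were 0.888 and -0.733.

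Sort1 had the same pattern, with r = 0.763 for CA1 and CA3 markers, 0.69 for CA2, 0.603 for dentate granule neurons and -0.636 for cortex, and also 0.553 for 10 astrocyte markers (adjusted permutation p from 0.00072 to 0.0485 over these 5). Ntf3 moved with the dentate granule list, with r = 0.727 (permutation p = 8e-05, adjusted 0.00154; rho 0.734, permutation p = 6e-05), and the value was the same to 3 digits without 2 arrays. Bdnf moved with that list at r = 0.6 (permutation p = 0.00071, adjusted 0.00757; rho 0.651, permutation p = 0.00035) and 0.577 without 2 arrays. Bdnf also had r = 0.601 with 9 microglia markers (adjusted permutation p = 0.0256), a value that was 0.415 without young plasma replicate 7 and 0.354 without 2 arrays, with an adjusted p of 0.0678 for rho. Ntrk2 had r = 0.549 with 10 interneuron markers and 0.558 with 6 striatum markers (adjusted permutation p = 0.0119 and 0.0192), and -0.612 with microglia markers (adjusted permutation p = 0.052), which was -0.313 without the 2 arrays farthest from the microglia median and -0.079 within PBS. Sort1 passed with microglia markers by rank alone (rho 0.543, adjusted permutation p = 0.0294), with r = 0.295 over all arrays and 0.642 without young plasma replicate 7. None of the 6 genes passed with the choroid plexus list, where the strongest r was 0.393 for Ntrk2 (adjusted permutation p = 0.203). Ngfr passed with no list, and its r lay between -0.28 and 0.173.

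**Figure D4:**
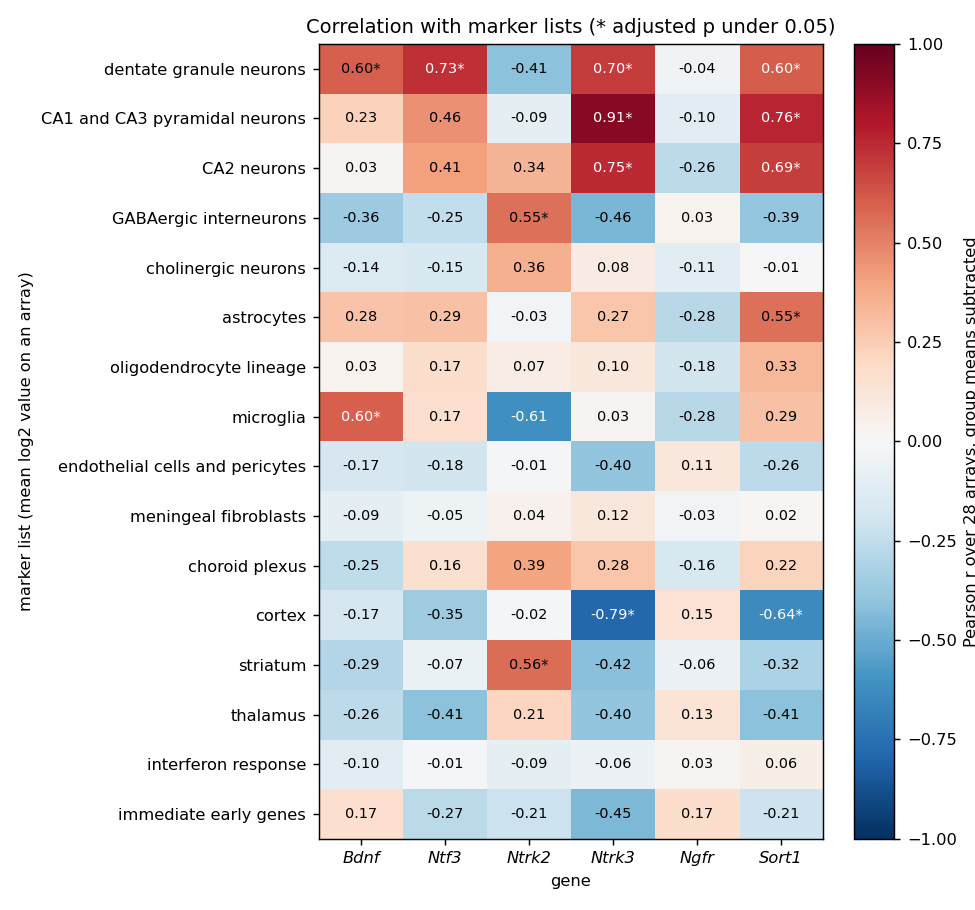
Pearson's r over 28 arrays, group means subtracted, between each neurotrophin gene (columns) and the mean log2 value of each marker list (rows); stars mark an adjusted permutation p under 0.05. Ntrk3 and Sort1 have high values in the rows of hippocampal neurons and low values in the cortex row, and Ngfr has no starred cell. The cholinergic row rests on 1 gene.

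Group means of these lists are given here without a test. The cortex mean was 7.84, 8.06 and 7.97 with cord, young and old plasma and 7.70 with PBS, and it ran from 7.53 to 8.40 over the plasma arrays, against 7.60 to 7.83 over the PBS arrays. All 6 cortex markers were above 0 in each comparison with PBS. The dentate granule mean was 8.18, 7.998 and 8.06 with cord, young and old plasma and 8.14 with PBS, and all 8 markers were above 0 for cord minus young and for cord minus old plasma. The CA1 and CA3 mean was 8.14, 8.09 and 8.07 with the plasmas and 8.09 with PBS. No marker gene passed the adjusted test in any comparison. The part of these lists in the differences between groups was not tested.

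Among all genes tested, those most like each neurotrophin gene between arrays were listed by r, as a description without a test. For Ntrk3 they were Large, Cpt1c and Slit1, with r of 0.915, 0.909 and 0.904, and for Sort1 Cpt1c, Il16 and Syna, with 0.879, 0.859 and 0.859, so Cpt1c was common to both. For Bdnf they were 4930402H24Rik, Pot1a and Zc3h12b, with 0.826, 0.804 and 0.785. For Ntf3 they were Nipa1, Lppr5 and Map2k1, the last a kinase of the cascade below Trk receptors, with 0.736, 0.72 and 0.718. For Ntrk2 they were Gabrg3, Sgpp1 and Gpkow, with 0.754, 0.743 and 0.725, and without 2 arrays these were 0.546, 0.494 and 0.561. For Ngfr they were Lingo4, Tal1 and Zmynd15, with 0.747, 0.746 and 0.648, and without 2 arrays these were 0.543, 0.627 and 0.669. All values are over the same 28 arrays, and the genes share those arrays.

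Bdnf is itself a gene of neuronal activity, so the immediate early genes Fos, Npas4 and Arc were set beside it. Fos averaged 6.52 ± 0.29 with cord plasma, 6.42 ± 0.45 with young plasma, 6.17 ± 0.64 with old plasma and 5.84 ± 0.20 with PBS (SD, n = 7 each). Npas4, a transcription factor that acts on Bdnf, averaged 6.56 ± 0.33, 6.36 ± 0.74 and 6.22 ± 0.73 with cord, young and old plasma and 5.67 ± 0.45 with PBS. For the plasma mean against PBS, Fos was 0.52 (SE 0.17, limma adjusted p = 0.212) and Npas4 0.71 (SE 0.24, adjusted p = 0.213), against 0.032 (SE 0.055) for Bdnf. Arc averaged 9.84 ± 0.27, 9.52 ± 0.90 and 9.59 ± 0.40 with the plasmas and 9.45 ± 0.20 with PBS. Young plasma minus PBS was 0.07 for Arc, and 0.40 without young plasma replicate 7, whose value was 7.59. Between arrays of a group, Bdnf had r = 0.167 with the mean of 13 immediate early genes (permutation p = 0.47, adjusted 0.705; rho 0.003, permutation p = 0.991). The groups differed in sign, with r of 0.015, 0.847, -0.505 and -0.212 within cord plasma, young plasma, old plasma and PBS.

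The rest of the system was described by 8 lists of genes that act with neurotrophins, 189 genes in all, of which 182 were tested. None passed the adjusted test in any comparison. At an unadjusted p under 0.05, 17 were higher and 2 lower with cord plasma than with PBS, or 10.4% of those tested against 8.74% of all genes. With young plasma 18 were higher and 6 lower, or 13.2% against 11.2%, and with old plasma 15 higher and 4 lower, or 10.4% against 10.8%. For the plasma mean 22 were higher and 5 lower, or 14.8% against 12.4%. These total shares lie near those of all genes. Over all genes, 783 were higher and 597 lower with cord plasma, and 958 and 806 with young plasma. With old plasma 1045 were higher and 655 lower, and for the plasma mean 1189 and 762. The split into higher and lower genes was not tested. Between plasmas, 5 genes of the 8 lists were higher and 8 lower with cord than with old plasma, or 7.14%. With young against old plasma 0 were higher and 4 lower, or 2.2%. With cord against young plasma 5 were higher and 4 lower, or 4.95%. Over all genes the shares at this threshold were 4.2%, 6.53% and 7.22% in the same order.

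The following values are for the plasma mean minus PBS, and none passed the adjusted test. At an unadjusted p under 0.05, 1189 of all genes were higher and 762 lower in this comparison, or 12.4%. Among the other ligands and receptors, Sorcs1, a relative of sortilin, was at 0.16 (SE 0.10). Of the 7 genes of that list tested, 2 were above 0, and Ntf5, the gene of neurotrophin 4/5, lay under the filter. Among 23 genes of proneurotrophin processing and secretion, 0 were higher and 2 lower at an unadjusted p under 0.05: Cpe, which sorts and trims prohormones, at -0.060 (SE 0.027), and Scg2, a granin of secretory granules, at -0.11 (SE 0.048). Among 33 Trk adaptors and regulators 4 were higher and 1 lower, with Rapgef1, an exchange factor for Rap1, at 0.13 (SE 0.036, adjusted p = 0.151) and Sh2b1, an adaptor, at 0.11 (SE 0.050). Among 38 genes of the signalling cascades 3 were higher and 1 lower, with Akt2 at 0.19 (SE 0.054, adjusted p = 0.176) and Eef2k, the kinase of elongation factor 2, at 0.12 (SE 0.039).

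Among 25 partners and proteases of p75, 4 were higher and 1 lower. Ngfrap1, which codes for a p75-binding protein, was at -0.12 (SE 0.033, limma adjusted p = 0.151), and it was nearly equal in the 3 plasmas, with means of 10.26, 10.27 and 10.27 with cord, young and old plasma and 10.39 with PBS. Arhgdia, which codes for a GDP dissociation inhibitor that p75 binds, was at 0.11 (SE 0.034), and old plasma minus PBS was 0.17 (SE 0.042, adjusted p = 0.139). Among 25 regulators of Bdnf transcription, 5 were higher and 0 lower, with Crtc2, a coactivator of CREB, at 0.12 (SE 0.040, adjusted p = 0.206) beside Npas4. Among 17 genes that BDNF is known to induce, several of them immediate early genes, 3 were higher and 1 lower, and 16 were above 0 with a median of 0.075, where the median over all genes was 0.0023 and 51.3% were above 0. This list shares genes with those chosen with earlier results known, so its direction is not independent evidence. Among 18 genes of other neurotrophic factor families, 3 were higher and 0 lower, with Gfra2, a receptor of neurturin, at 0.33 (SE 0.10, adjusted p = 0.191) and Gfra4 at 0.10 (SE 0.032), and 4 were above 0.

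**Figure D5:**
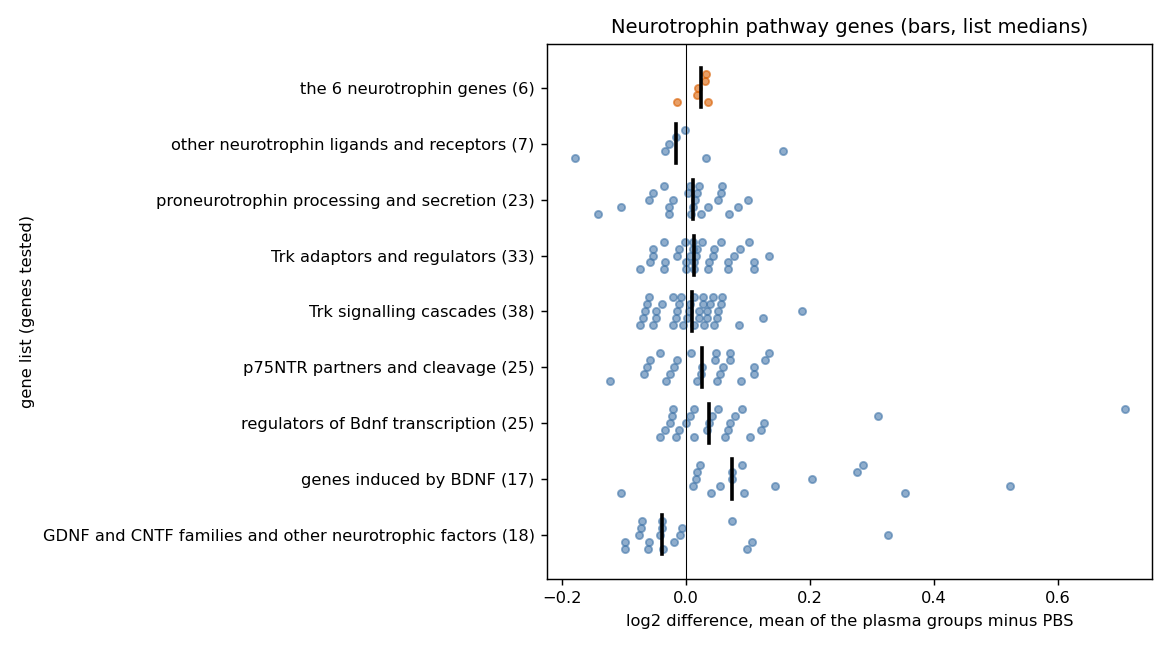
Log2 difference of each gene (points) for the plasma mean minus PBS, in the 6 neurotrophin genes and 8 lists of genes that act with them; the number of genes tested stands beside each name and bars are list medians. The 6 genes lie between -0.015 and 0.035, while Npas4 at 0.71 and Fos at 0.52 lie farthest to the right.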

How the data were processed

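Hippocampal RNA was labelled by a whole-transcript protocol for Affymetrix arrays, as described in the labels' protocols. The deposited values are log2 intensities that the authors obtained by RMA, a step named in the submitters' processing notes without a version; the genome build is not given in the sources used here. Because RMA normalizes arrays by quantiles, it reduces any shift common to most genes. A second table deposited by the authors holds group means, SDs and unadjusted p-values, per the file headers; its means equalled recomputed ones within 8.57e-09. Counting depth does not apply to arrays, and 7 per group limit the precision.

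Of 41345 rows, 23410 had a symbol, read from the combined name column since 26 were altered in the symbol column. Rows with a mean under 4.68, the 30th percentile of named rows, were left out, and for the 898 symbols with several rows the highest was kept, leaving 15781 genes. The limma model (limma 3.58.1, R 4.3.3) had 4 group means and 28 arrays, with eBayes and Benjamini-Hochberg adjustment at 0.05. Correlations used 100000 permutations within groups (numpy 2.4.6). Promoter sequences are RefSeq's on GRCm38.p6. The fit was tested on simulated data with independent noise for each gene, which does not mimic genes that vary together between arrays.

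The 6 genes, the 8 pathway lists and the 16 marker lists were chosen with earlier results of these data known. Named genes are the 6, the 2 genes of each pathway list with the smallest p for the 3 plasmas together against PBS, the 3 most similar genes for each of the 6, leading markers, and Fos, Npas4 and Arc. Alternatives were other filters and thresholds, another quantile step, centring, a trended and robust fit, array weights, 2 groups alone, a replicate block and leaving out each array.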

Additional observations from a re-analysis of the deposited data

Results flagged for a closer look

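Old plasma replicate 5 had the lowest Ngfr value of the 28 arrays, 4.94 on the log2 scale, and the next old plasma array was at 5.33. That gap was 0.571 of the group's range, above Dixon's critical value for 7 samples. Of 24 sets of 7 arrays examined, 6 genes in 4 groups, this was the 1 that passed, and chance alone gives such a gap in about 1 of 20 sets.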

How the results depend on the processing

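None of the 6 genes had an adjusted p under 0.05 in any comparison under the 10 other settings or the 28 fits that left out 1 array. Over these 1079 differences, 1031 kept their direction, 48 changed sign, and the smallest adjusted p was 0.427. Outside the leave-outs the sign changed for young plasma minus PBS in Bdnf with array weights (0.0135), in Ntrk2 with centring on the array median (-0.0074) and array weights (-0.0155), and in Ntrk3 (0.0016) and Sort1 (0.0056) with renewed quantile normalization. It also changed in Ntrk2 for the plasma mean minus PBS with centring (0.0028) and for young minus old plasma with quantile normalization (8e-04). Leaving out 1 array gave these ranges where the sign changed: for young plasma minus PBS, Bdnf -0.0391 to 0.041, Ntrk2 -0.0184 to 0.0145, Ntrk3 -0.0341 to 0.0176 and Sort1 -0.0172 to 0.0101; for old plasma minus PBS, Bdnf -0.0082 to 0.0414, Ntf3 -0.0047 to 0.0908 and Ngfr -0.1105 to 0.0039; for the plasma mean minus PBS, Ntf3 -0.0206 to 0.0748 and Ngfr -4e-04 to 0.0463; for young minus old plasma, Bdnf -0.0519 to 0.0281; and for cord minus young plasma, Ngfr -0.0642 to 6e-04. Of the 31 differences that kept their sign, 23 moved by over 1.5 times without some 1 array. The cause of these changes was not tested.

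Counts over all genes moved more. For old plasma against PBS (0 genes) they were 104 with centring, 3 with array weights, 2 at a threshold of 0.10, 1 with a filter at the 50th percentile, 1 with the trended fit, and 0 to 10 without 1 array, the highest without PBS replicate 5. For the plasma mean (3 genes) they were 0 with no filter, 16 with the 50th percentile filter, 5 with quantile normalization, 18 with centring, 13 with the trended fit, 11 with array weights, 19 at 0.10, and 0 to 42 without 1 array, the highest without PBS replicate 1. For young against old plasma (1 gene) the count was 0 with the 50th percentile filter, quantile normalization, centring or the 2 groups alone, and 1 without any 1 array. For the F-test (1 gene) it was 0 with the 50th percentile filter, quantile normalization, centring and the trended fit, and 0 to 1 without 1 array. For cord or young plasma against PBS (0 genes) it was 0 to 1 without 1 array, and 1 for young plasma with quantile normalization.

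With a replicate block the counts were 1 for young plasma, 0 for the plasma mean and 0 for the F-test, and none of the 6 genes was called. The replicate numbers were not taken to pair the samples: of 42 same-numbered pairs, 12 had a correlation of deviations over 0.1, with a mean of 0.048, and 2 of 28 arrays correlated best with their own number. All 6 pairs of replicate 4 were among the 12, between 0.116 and 0.414, and its 4 arrays were all in the set with high choroid plexus markers.

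Of the pairs among the 6 genes, 2 passed by r, 6 by rho and 6 without the 2 arrays farthest from the median. In alternatives chosen after seeing the data, 5 passed with centring and 4 without PBS replicates 4 and 6 and young plasma replicate 7. For the pairs with marker lists, the counts under these alternatives are not given here. Using every row of a gene gave no alternative, since each of the 6 has 1 row. The files give no background level; of the 6 genes Ngfr, Ntf3 and Bdnf have the means nearest the filter.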
